A study of Mus musculus with 4 samples.

Results

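Replication origins (ORIs) of the mouse Hist2 gene cluster were examined with the 83 probes, of 19805 tiled probes in all, that lie in the fragments numbered 105608 to 105650 of chromosome 3. The range was set around 2 sites of the study's ORI list, at the histone H2A gene Hist2h2ab in fragment 105615 (15 probes) and at the histone H3 gene Hist2h3c2 in fragment 105636 (6 probes). The remaining 62 probes belong to other fragments. Nascent strands of the female mouse embryonic stem (ES) cell line PGK12.1, grown without treatment, were labelled in one colour and total genomic DNA of that line in the other, and both were hybridised to each of 4 arrays. The strands measured 100–600 nt on 2 arrays and 300–800 nt on the remaining 2. All arrays share this single cell line and no control other than genomic DNA was hybridised. The size fraction, the dye, the print design and the software version changed together between the 2 pairs of arrays, so these cannot be told apart in any comparison of the fractions. The list of ORIs was drawn from the 300–800 nt arrays, so the 300–800 nt values of its probes are given as a description, with no test. The study also marked the part of that list that it found with the 100–600 nt arrays as well.

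Short nascent strands are newly made DNA that still carries an RNA primer, which protects them from λ-exonuclease, and sequences close to an active ORI are therefore over-represented among them. Replication-dependent histone genes, such as Hist2h2ab and Hist2h3c2, are short genes without introns that are transcribed mainly during S phase to package the DNA that is being copied. H2A and H2B genes often lie head to head and share a promoter region, and CCAAT boxes, a TATA box and octamer elements are common in such promoters.

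The probes that carry the results are shown first, on the plus strand of chromosome 3 with CpG dinucleotides in capitals and with their fragment and offset as names. The 5 listed probes are accompanied by 2 unlisted probes that fall completely into a reference promoter. Offsets run against the chromosome coordinate. At Hist2h2ab the listed probes start at positions 95707226, 95707696 and 95708076 of Ensembl mouse build 35, and the unlisted probes at 95707476 and 95708786. Of the listed probe at 95707696 only the first 50 bases are printed, since it reaches into the transcript.
105615 (2690), listed for Hist2h2ab: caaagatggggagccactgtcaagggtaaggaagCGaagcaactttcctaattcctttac
105615 (2440), in the Hist2h2ab promoter: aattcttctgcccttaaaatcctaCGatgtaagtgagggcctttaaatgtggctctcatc
105615 (2220), listed for Hist2h2ab, first 50 bases: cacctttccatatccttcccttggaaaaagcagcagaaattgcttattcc
105615 (1840), listed for Hist2h2ab: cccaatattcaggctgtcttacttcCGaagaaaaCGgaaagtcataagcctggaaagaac
105615 (1130), in the Hist2h2ac promoter: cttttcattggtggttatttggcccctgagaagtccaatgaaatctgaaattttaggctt
105636 (1500), listed for Hist2h3c2, position 95725391 to 95725450 of build 35: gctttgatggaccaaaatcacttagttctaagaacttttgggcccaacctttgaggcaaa
105636 (1280), listed for Hist2h3c2, position 95725611 to 95725670 of build 35: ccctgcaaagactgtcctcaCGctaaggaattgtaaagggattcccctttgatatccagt

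The 3 probes of fragment 105615 that matched a RefSeq promoter over all 60 bases gave the same sum of start and offset in GRCm38.p6, and the whole fragment was placed from this sum. Hist2h2ab (H2ac21) covers positions 96219885 to 96220354 of chromosome 3 in that build on the plus strand. Relative to its annotated start, the listed probes begin 492 bp upstream, 22 bp upstream (so that this probe spans the start) and 358 bp downstream, inside the gene. The unlisted probe at offset 2440 begins 242 bp upstream. The gene is followed by a second H2A gene on the minus strand, Hist2h2ac (H2ac20, 96220413 to 96220880), and by the H2B gene Hist2h2be (H2bc21, 96221072 to 96223738). The 250 bases before Hist2h2ab (chr3:96219635-96219884, plus strand) and the 191 bases between Hist2h2ac and the start of Hist2h2be (chr3:96220881-96221071, minus strand) are printed from RefSeq, with CCAAT and TATAAA in capitals on either strand. They are shown because a probe lies in each of them.
Hist2h2ab promoter: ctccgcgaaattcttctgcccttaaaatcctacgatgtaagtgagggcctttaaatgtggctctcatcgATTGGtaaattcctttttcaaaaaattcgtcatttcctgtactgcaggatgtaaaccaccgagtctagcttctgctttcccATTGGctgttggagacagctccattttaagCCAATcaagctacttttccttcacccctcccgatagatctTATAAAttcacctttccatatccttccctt
Hist2h2ac promoter: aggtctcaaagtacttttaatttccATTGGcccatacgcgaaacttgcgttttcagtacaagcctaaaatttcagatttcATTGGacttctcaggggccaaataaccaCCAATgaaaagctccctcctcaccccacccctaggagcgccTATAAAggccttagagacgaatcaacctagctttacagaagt
In its full reference window of 300 bases, which includes 50 bases after the start, the Hist2h2ab promoter holds 3 CCAAT and 1 TATAAA. The Hist2h2ac window holds 3 CCAAT, 1 TATAAA and 1 ATTTGCAT, the octamer, which lies outside the printed stretch. Over all 32851 reference promoters of this length, 37.4% hold CCAAT, 13.6% hold TATAAA and 1.74% hold ATTTGCAT on either strand. These are matches of letters and no binding was measured.

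Along the cluster, high log2 ratios of nascent over genomic DNA were found at Hist2h2ab, and lower ones in the Hist2h3c2 fragment. All ratios were adjusted by loess within each array. A ratio of 0 therefore stands for the centre of probes of like intensity on that array, not for equal signal in both channels. A probe is called positive when its mean log2 ratio in a fraction exceeds the 0.95 quantile of all tiled probes, which lay at 1.16 for 300–800 nt and at 0.64 for 100–600 nt strands. In 300–800 nt strands 6 of the 83 probes (7.23%) were positive, against 5.00% of all probes, which is what the quantile sets. Of these, 3 lie in the Hist2h2ab fragment, 2 in the Hist2h3c2 fragment and 1 elsewhere, and 5 of the 6 are the listed probes themselves. The median log2 ratio was 0.12 over the 83 probes (range -2.15 to 2.68) and 0.00 over all probes. Outside both fragments the median of the 62 probes was 0.02, with 32 probes above 0. In 100–600 nt strands 7 of the 83 probes (8.43%) were positive, against 5.00% of all probes with a value. This count was 3 without replicate 1, 13 without replicate 2 and 4 with normexp background correction. Both fractions were positive at 2 of the 83 probes (2.41%, against 0.682% of all probes), and both probes are at Hist2h2ab.

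**Figure D1:**
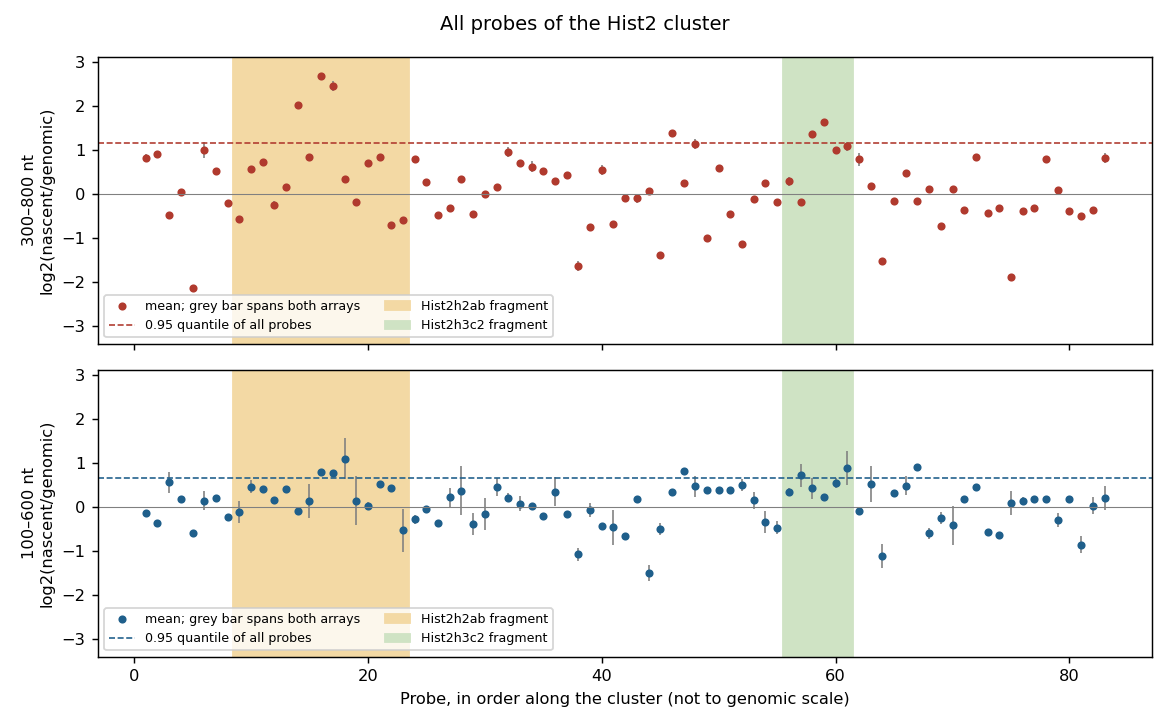
Mean log2 ratio of nascent over genomic DNA for the 83 probes in their order along the cluster (x axis, not to scale), in 300–800 nt strands (top) and 100–600 nt strands (bottom). Grey bars span the 2 arrays where both gave a value, dashed lines mark the 0.95 quantile of all probes, and the highest points of the upper panel, up to 2.68, lie in the shaded Hist2h2ab fragment.

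At Hist2h2ab the 300–800 nt strands were enriched over a stretch of probes whose first lies upstream of the gene and whose last lies within it. The listed probe that spans the gene start gave log2 ratios of 2.70 and 2.67 on the 2 arrays, from intensities of 2929 for nascent strands and 442 for genomic DNA on replicate 1. Its mean of 2.68 ± 0.015 (SD, n = 2 arrays) ranked 4 among all 19805 probes. The listed probe inside the gene gave 2.57 and 2.33 (mean 2.45 ± 0.17, rank 13), and the one 492 bp upstream gave 1.93 and 2.09 (mean 2.01 ± 0.11, rank 62). Each of the 3 was far above the threshold on both arrays, and together they averaged 2.38 ± 0.024.

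Between these high probes the profile had a dip. The probe in the Hist2h2ab promoter, 242 bp upstream of the start, gave 0.78 and 0.87 (mean 0.83 ± 0.069), below the threshold and lower than its neighbours on both sides on each array. The signal also fell off within one probe step at either end. The probe that begins 802 bp upstream gave 0.12 and 0.19, and the probe that begins 538 bp downstream of the start, at the 3′ end of Hist2h2ac, gave 0.33 and 0.35. No probe between these 2 edges, other than the one in the promoter, was below the threshold.

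**Figure D2:**
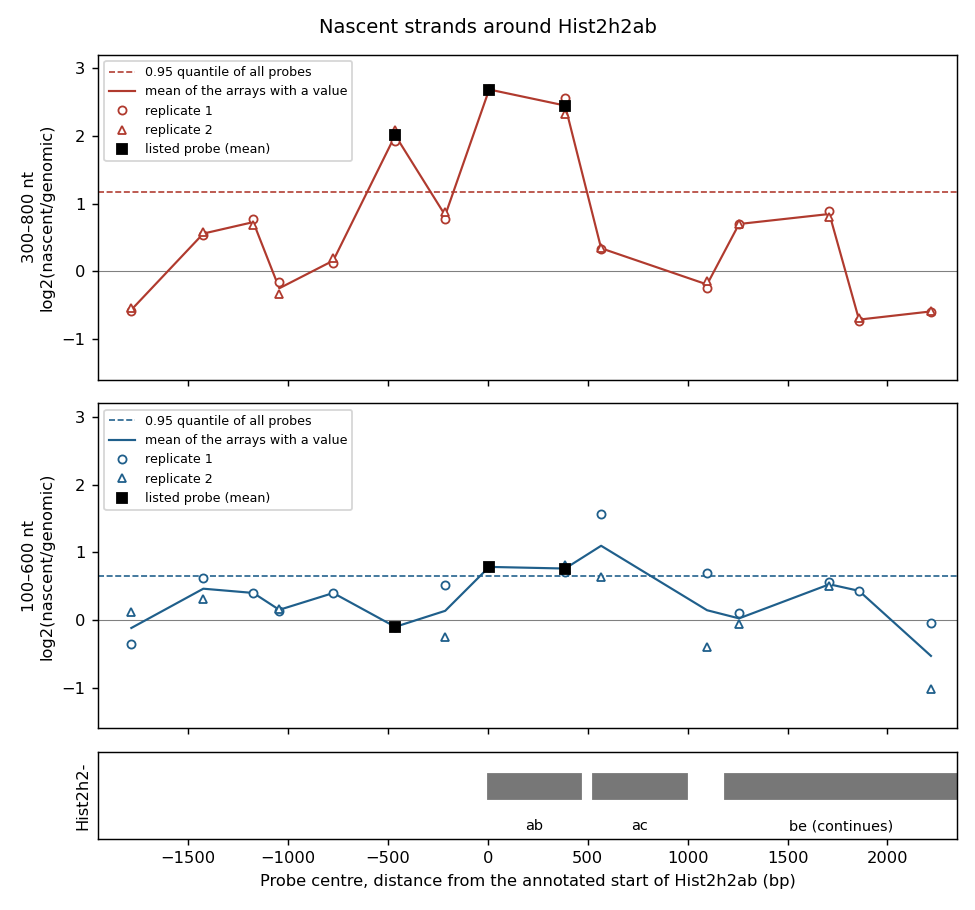
Log2 ratio of nascent over genomic DNA at the 15 probes of the Hist2h2ab fragment against the distance of the probe centre from the annotated gene start in bp, for 300–800 nt strands (top) and 100–600 nt strands (middle), with the annotated genes as grey boxes (bottom). Symbols are the 2 arrays, lines their mean and black squares the listed probes, of which 3 exceed the dashed threshold in the upper panel and 2 in the middle panel.

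In 100–600 nt strands the positive probes of the fragment were the probe that spans the start of Hist2h2ab, the listed probe inside the gene and a probe in the end of Hist2h2ac. The listed probe inside the gene gave 0.71 and 0.81 (mean 0.76 ± 0.068), above the threshold on both arrays. The probe that spans the start had a value on 1 array only, 0.78, from a genomic intensity of 38.4, the lowest of the fragment on that array, and the probe 492 bp upstream gave -0.10 on the same array, so the upstream edge of the 300–800 nt stretch had no counterpart on that array. The highest 100–600 nt mean of the cluster, and rank 89 of all probes, was at the unlisted probe in the 3′ end of Hist2h2ac, with 1.56 and 0.63 (mean 1.10 ± 0.66), where the 300–800 nt mean was 0.34. On replicate 2 this probe was below the 0.81 of the listed probe inside Hist2h2ab. The promoter probe 242 bp upstream gave 0.52 and -0.25, values on either side of 0. Over the 3 listed probes the 100–600 nt mean was 0.48. Replicate 1 gave 0.46 from 3 probes and replicate 2 gave 0.81 from the 1 probe it measured, so the value without replicate 1 was 0.81 in place of 0.48.

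The other histone genes next to Hist2h2ab showed no positive probe in 300–800 nt strands. The probe in the promoter region between Hist2h2ac and Hist2h2be, whose bases hold CCAAT on either strand, gave -0.25 and -0.14 in 300–800 nt strands. It gave 0.69 and -0.41 in 100–600 nt strands, so the arrays differed in sign. Inside the annotated 2667 bp of Hist2h2be the 4 probes had 300–800 nt means of 0.70, 0.85, -0.72 and -0.59 in the direction away from Hist2h2ab, and 100–600 nt means of 0.02, 0.53, 0.43 and -0.53. Upstream of Hist2h2ab, the 5 probes that begin 802 to 1812 bp before the start ranged from -0.57 to 0.73 in 300–800 nt strands. Of the 15 probes of the fragment, 12 had a 100–600 nt mean above 0, and the 100–600 nt median was 0.40 against 0.02 for all probes.

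The site named for Hist2h3c2, an H3 gene on the minus strand at 96238479 to 96239127 of GRCm38.p6 (H3c15), could not be placed in that build by a match. A limit follows from the next fragment upstream of the gene, 105638, of which 1 probe matched 33 bases at the edge of the promoter of the H2A gene Hist2h2aa2 (H2ac19). This puts the lower edge of fragment 105638 at position 96239359. If fragment 105636 ends below that edge, its listed probes lie at least 400 and 620 bp beyond the 3′ end of Hist2h3c2, and at least 1048 bp from its start. Fragments were in the order of their numbers and did not overlap in any of the 115 neighbouring pairs that the list of ORIs places. No probe lies in the reference promoter window of Hist2h3c2. This window was identical to that of the second H3 gene copy, Hist2h3c1, at 284 of 285 aligned bases.

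In the Hist2h3c2 fragment the 300–800 nt enrichment was lower and did not return to 0 on one side. The listed probe at offset 1280 gave 1.62 and 1.63 (mean 1.63 ± 0.0066, rank 228), and the one at offset 1500, 220 bp away, gave 1.41 and 1.28 (mean 1.35 ± 0.094, rank 587). On the side of the gene under the placement given above, the probes 280 bp and 520 bp from the higher listed probe gave 1.05 and 0.96, and 1.18 and 0.98, so only 1 of these 4 values exceeded the threshold of 1.16. On the other side the probe 390 bp away gave -0.13 and -0.25, and the outermost probe, 740 bp away, gave 0.37 and 0.19. The positive probes thus sat at the edge of a stretch of 4 neighbouring probes with means of 1.00 or more.

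In 100–600 nt strands all 6 probes of this fragment were above 0 on both arrays, and the listed probes were 2 of the 3 lowest among them. The listed probe at offset 1280 gave 0.20 and 0.25, and that at offset 1500 gave 0.17 and 0.66, with means of 0.23 and 0.42 below the threshold of 0.64. The positive probes of this fraction were 2 unlisted ones. The outermost probe on the side of the gene, at offset 760, gave 1.27 and 0.49 (mean 0.88 ± 0.55), and the probe at offset 1670, which had the lowest 300–800 nt value of the fragment, gave 0.45 and 0.98 (mean 0.72 ± 0.37). The median of the 6 probes was 0.48, against 0.02 over all probes.

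**Figure D3:**
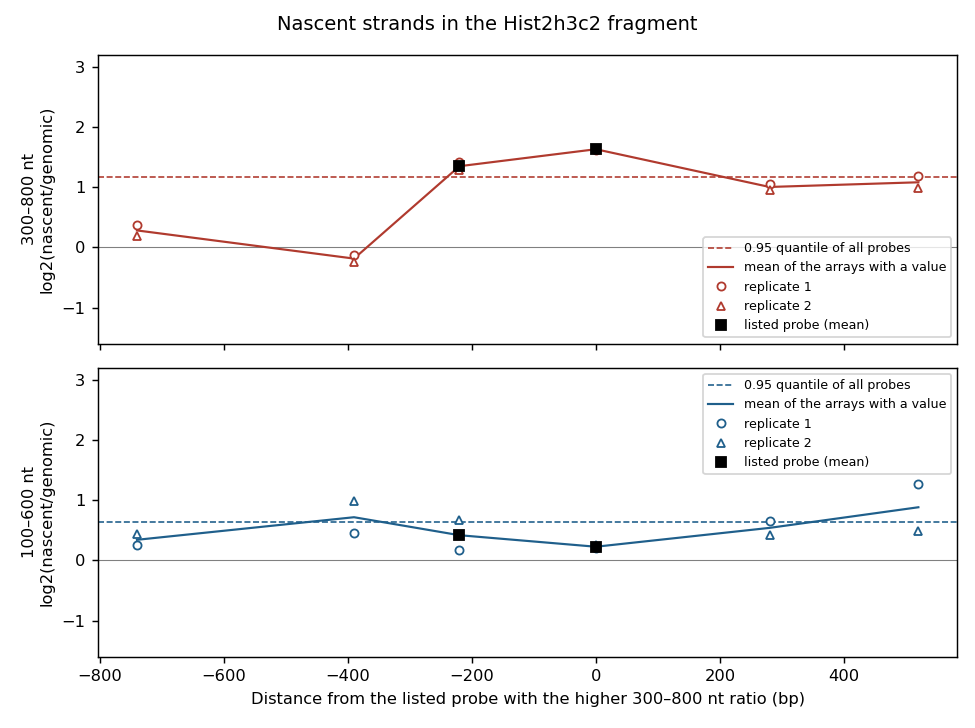
Log2 ratio at the 6 probes of the Hist2h3c2 fragment against the distance in bp from the listed probe with the higher 300–800 nt ratio, with positive distances toward the gene under the placement given in the text. Symbols are the 2 arrays and black squares the means of the listed probes, which are the highest of the fragment in 300–800 nt strands (top, 1.63 and 1.35) and 2 of the 3 lowest in 100–600 nt strands (bottom, 0.23 and 0.42).

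Set side by side, the listed probes of Hist2h2ab averaged 2.38 ± 0.024 and those of Hist2h3c2 1.49 ± 0.044 in 300–800 nt strands. The difference was 0.88 on replicate 1 and 0.91 on replicate 2 (mean 0.89 ± 0.020), where the SD covers the spread between these arrays and not that between probes. With normexp background correction the Hist2h3c2 mean was 0.72 and that of Hist2h2ab 1.81. In 100–600 nt strands the means were 0.48 and 0.32, and the mean difference of 0.16 turned to -0.08 with normexp background correction, where the Hist2h2ab mean was 0.26. The Hist2h3c2 mean was 0.19 without replicate 2 and 0.46 without replicate 1. Per array the difference was 0.28 and 0.35, where replicate 2 holds 1 of the 3 Hist2h2ab probes. With 2 arrays a fraction no exact test can reach p under 0.05, and the probes were chosen on the 300–800 nt arrays, so neither difference was tested.

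Apart from both sites, a single probe was positive in 300–800 nt strands. It is the only probe of fragment 105630 (offset 10) and gave 1.36 and 1.41 (mean 1.38 ± 0.039), with 0.32 and 0.36 in 100–600 nt strands. The next fragment, 105631, held the value nearest below the threshold, with 1.24 and 1.02 at offset 400 (mean 1.13), and 0.23 and 0.70 in 100–600 nt strands. Its probe at offset 670 was positive in 100–600 nt strands, with 0.81 and 0.79, and gave 0.20 and 0.28 in 300–800 nt strands. Beyond Hist2h3c2, the probe of fragment 105641 (offset 40) reached 0.89 in 100–600 nt strands on the 1 array that measured it, with -0.14 and -0.18 in 300–800 nt strands. The probe that reaches into the Hist2h2aa2 promoter, at offset 670 of fragment 105638, gave 0.93 and 0.64 in 300–800 nt strands and -0.09 on the 1 array of 100–600 nt strands that measured it. Of these fragments only 105638 could be placed with the reference tables used here.

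The lowest probes of the cluster differed between the fractions. At offset 400 of fragment 105611, 4 probes before the Hist2h2ab fragment, the 300–800 nt strands gave -2.15 and -2.14, rank 19726 of 19805, whereas the next probe of the same fragment, at offset 260, gave 0.81 and 1.17. The lowest mean in 100–600 nt strands was -1.50 ± 0.27 at offset 330 of fragment 105629 (-1.31 and -1.69), where the 300–800 nt strands gave 0.14 and 0.00.

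The 100–600 nt log2 ratios were tested against 0, which after loess is the centre of each array and not equal nascent and genomic signal. Of the 66 probes of the cluster with a value on both 100–600 nt arrays, 5 (7.58%) were called above 0 (limma, Benjamini-Hochberg adjusted p under 0.05), against 3.79% of all 15478 probes tested. They were the probe inside Hist2h2ab (log2 ratio 0.76, SE 0.22, adjusted p = 0.0250 by limma), the probe in the 3′ end of Hist2h2ac (1.10, SE 0.24, adjusted p = 0.00528 by limma), the probe at offset 670 of fragment 105631 (0.80, SE 0.22, adjusted p = 0.0186 by limma), and both unlisted positive probes of the Hist2h3c2 fragment, at offset 760 (0.88, SE 0.23, adjusted p = 0.0169 by limma) and at offset 1670 (0.72, SE 0.22, adjusted p = 0.0395 by limma). The listed probes of Hist2h3c2 were not called, with adjusted p-values of 0.518 at offset 1280 and 0.222 at offset 1500 (limma). In the other direction 5 of the 66 probes (7.58%) were called below 0, against 9.58% of all probes. All 5 lie outside both fragments, with log2 ratios from -0.66 to -1.50, and 1 of them, at offset 330 of fragment 105629, was also called with normexp background correction (481 of all probes). On replicate 1 that probe gave -1.31 from intensities of 239 for nascent strands and 205 for genomic DNA. On replicate 2 it gave -1.69 from 562 for nascent strands and 592 for genomic DNA. A call below 0 therefore need not mean a nascent signal below the genomic one. The labels do not tie the arrays to separate cultures, so these p-values measure the spread between 2 arrays, which may be technical. For each probe limma draws that spread toward the one common to all 15478 probes tested. At offset 670 of fragment 105631 the arrays had an SD of 0.015, whereas the SE was 0.22. None of the 5 calls above 0 passed with normexp background correction in limma, where 9 probes of the cluster were above 0 at an unadjusted p under 0.05 and 57 of all probes were called.

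Between the fractions, 3 of the 66 probes (4.55%) were called higher in 300–800 nt than in 100–600 nt strands, against 4.82% of all probes, and 3 (4.55%) were called lower, against 2.20% of all probes. Of the 3 higher ones, 2 are listed probes, inside Hist2h2ab and at offset 1280 of the Hist2h3c2 fragment, whose differences of 1.69 and 1.40 are a description, since these probes were chosen on the 300–800 nt arrays. The 300–800 nt arrays entered this fit as 1 sample, so its whole spread comes from the 2 arrays of 100–600 nt strands. The remaining higher probe is that at offset 330 of fragment 105629, the lowest of the cluster in 100–600 nt strands (difference 1.57, SE 0.38, adjusted p = 0.0193 by limma). The 3 lower ones lie outside both fragments. At offset 30 of fragment 105631 the arrays gave -0.97 and -1.03 in 300–800 nt strands and 0.35 and 0.43 in 100–600 nt strands (difference -1.39, SE 0.37, adjusted p = 0.0327 by limma). At offset 130 of fragment 105632 they gave -1.13 and -1.14 against 0.64 and 0.35 (difference -1.63, SE 0.38, adjusted p = 0.0150 by limma). At offset 1310 of fragment 105645 they gave -1.92 and -1.87 against 0.37 and -0.18 (difference -1.99, SE 0.39, adjusted p = 0.00627 by limma). With normexp background correction in limma no call of either direction passed in the cluster (3 probes higher and 5 lower at an unadjusted p under 0.05), and over all 15478 probes 0 higher and 1 lower call passed (1010 and 622 at an unadjusted p under 0.05). The differences at these 4 probes were then 1.69, -1.18, -1.49 and -2.03 in the order given. With median centring no lower call passed in the cluster.

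**Figure D4:**
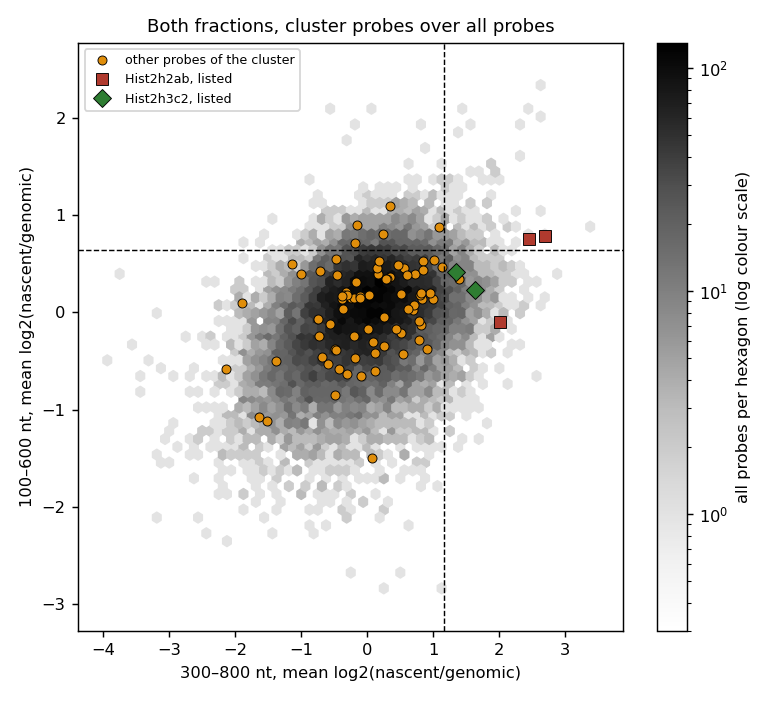
Mean log2 ratio in 300–800 nt strands (x axis) against that in 100–600 nt strands (y axis) for the 83 probes of the cluster (coloured symbols) over all probes (grey hexagons, log colour scale), with dashed lines at the 0.95 quantiles. Of the listed probes, 2 of Hist2h2ab lie in the upper right quadrant, and the third, 492 bp upstream of the gene, lies at 2.01 in 300–800 nt and -0.10 in 100–600 nt strands.

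Across the 83 probes the means of the fractions had a Pearson r of 0.41 and a Spearman rho of 0.38, against 0.36 and 0.34 across 19635 of all probes. The 300–800 nt arrays had an r of 0.99 with each other across the 83 probes and the 100–600 nt arrays 0.66 across 66 probes. These are correlations across probes that share the arrays and are descriptions. The 300–800 nt arrays differed over the cluster by 0.495 times the variance that their repeated spots predict, so they were counted as 1 sample in the limma fit. The study describes the material on these arrays as biological replicates. The SD between the 100–600 nt arrays was 0.32.

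The probes of the cluster were not rich in C+G. Their C+G content had a median of 43.3% (range 30% to 60%), against 41.7% over all probes, and 1 of the 83 reached 60%. Although the list of ORIs gives Hist2h2ab a CpG island and Hist2h3c2 none, the listed probes of Hist2h2ab had 46.7%, 45.0% and 43.3% C+G with 1, 1 and 2 CpG dinucleotides, and those of Hist2h3c2 had 41.7% and 46.7% with 0 and 1. Over the 70 listed probes with a CpG island the median was 59.2% C+G with 4 CpG, and over the 80 without one it was 43.3% and 0 CpG. The reference promoter window of Hist2h2ab had 43.7% C+G and an observed over expected CpG ratio of 0.667, and that of Hist2h3c2 had 72.7% and 0.750, in windows shorter than a CpG island must be. Over all reference promoters the medians were 52.7% and 0.384. On either strand CCAAT occurred in 11 of the 83 probes (13.3%, against 10.7% of all probes of 60 bases), TATAAA in 3 (3.61%, against 4.45%) and ATTTGCAT in 0 (against 0.328%). Across the 83 probes the log2 ratio had a Pearson r with C+G of -0.11 in 300–800 nt and 0.071 in 100–600 nt strands.

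The genomic DNA signal of the positive probes was low. Averaged over both 300–800 nt arrays, the genomic intensity of the 6 positive probes lay between 299 and 534 (median 393), against a median of 909 for the other 77. Over all probes the medians were 425 for positive and 840 for other probes. Across the 83 probes the 300–800 nt log2 ratio had a Spearman rho of -0.46 with the genomic intensity of replicate 1, a measure that is also the denominator of the ratio, against -0.32 across all probes. The brightest genomic signal of the cluster, 23550 on replicate 1, was that of the probe at offset 1310 of fragment 105645, where median centring in place of loess moved the difference between the fractions from -1.99 to -0.62. All 83 probes were well above background in both channels on the 300–800 nt arrays. The part of the genomic signal in these ratios was not tested.

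**Figure D5:**
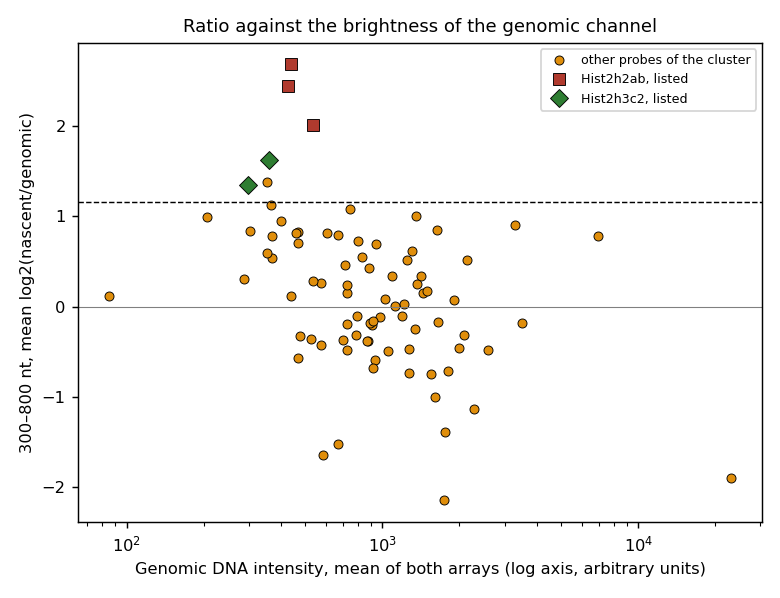
Mean log2 ratio in 300–800 nt strands (y axis) against the genomic DNA intensity averaged over both arrays (x axis, log scale, arbitrary units) for the 83 probes of the cluster, with the dashed line at the positive threshold of 1.16. All 6 positive probes lie between 299 and 534 on the x axis.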

How the data were processed

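Agilent two-colour arrays of nascent strands against genomic DNA were analysed, 2 per size fraction. Per the file headers, the intensities deposited by the authors were background-subtracted and detrended by Feature Extraction, without dye normalisation for 100–600 nt (nascent strands in Cy5) and with it for 300–800 nt strands (nascent strands in Cy3). The deposited log10 ratio of the 300–800 nt arrays, Cy5 over Cy3, served as a check of direction (median difference from the computed log2 ratio 1.4e-07, largest 1.24). The authors' own loess step and peak statistics are not in these values.

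Log2 ratios of nascent over genomic signal were computed without marked spots, adjusted by loess within each array (span 0.3, 4 iterations), and averaged per probe of 60 bases and per fraction. A value on both 100–600 nt arrays was present for 66 of the 83 probes, and on 1 array for 17. The fits used limma 3.58.1 in R 4.3.3 over 15478 probes with a value on every array, two-sided, with Benjamini-Hochberg adjustment at 0.05. In each fit the spread of a probe was drawn toward that of all probes tested. Since spots of a probe within a 300–800 nt array varied more than the 2 arrays did, their mean entered as 1 sample. The fits were tested on simulated data in which both fractions were given nearly the same spread, so that assumption of the fraction test was not tested. The number of arrays limits the precision.

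Alternatives were normexp background correction (offset 50, on the mean raw signal for 100–600 nt and on the median raw signal for 300–800 nt arrays), median centring, marked spots kept, a C+G fit, other quantiles and left-out arrays. Same-numbered arrays did not deviate together across the fractions (r = -0.0097), so the numbers do not pair them. Named are the listed probes, the positive probes, the lowest probe per fraction, neighbours of listed or positive probes, probes matching a promoter and probes called between the fractions. The probes and lists were chosen with earlier results of these data known. Promoters come from RefSeq (GRCm38.p6), and positions in build 35 from the list of ORIs and the offset in the probe name.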

Additional observations from a re-analysis of the deposited data

Results flagged for a closer look

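At 4 probes outside both listed sites the difference between 300–800 nt and 100–600 nt strands passed the limma test of that difference, in which the 300–800 nt arrays are 1 sample and the spread comes from the 2 arrays of 100–600 nt strands. It was 1.57 at offset 330 of fragment 105629, where the 100–600 nt strands were lowest. It was -1.39 at offset 30 of fragment 105631 and -1.63 at offset 130 of the next fragment, 105632. It was -1.99 at offset 1310 of fragment 105645, the probe with the highest genomic intensity of the cluster. With normexp background correction the differences were 1.69, -1.18, -1.49 and -2.03 and none of the 4 passed, as was the case for all but 1 of the 15478 probes tested, and none of the 3 negative ones passed with median centring. Fraction, dye, print design and software version cannot be told apart here.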

How the results depend on the processing

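With the 0.90 quantile 12 probes were positive in 300–800 nt strands, 11 in 100–600 nt strands and 4 in both, and with the 0.99 quantile 3, 1 and 0. In 300–800 nt strands the count of 6 became 9 with normexp, 8 with median centring and 7 with the C+G fit. It stayed at 6 with marked spots kept and without 300–800 nt replicate 1, and was 8 without replicate 2. With normexp background correction 4 were positive in 100–600 nt strands and 1 in both, and 1 was positive in both where a value on both arrays was required. Leaving out 1 array gave 3 (without 100–600 nt replicate 1) to 13 (without replicate 2) positive probes in 100–600 nt strands, and 1 to 3 in both. Calls above 0 in 100–600 nt strands in limma numbered 0 with normexp (9 at an unadjusted p under 0.05) and 3 with median centring, against 5. Calls between the fractions in limma, 3 higher and 3 lower, became 0 and 0 with normexp (3 and 5 at an unadjusted p under 0.05). With median centring no lower call was left (2 at an unadjusted p under 0.05). With the 300–800 nt arrays as separate samples they became 15 and 12, and with a replicate block 16 and 8. Over all 15478 probes these settings called 2923 and 2504, and 3183 and 2649, against 746 and 340. Whether the replicate numbers pair the arrays could not be decided.

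The mean of the listed Hist2h2ab probes in 300–800 nt strands was 1.81 with normexp, 2.49 with median centring and 2.41 with the C+G fit, and that of Hist2h3c2 was 0.72 with normexp and 1.26 with median centring. Their difference was 1.09 with normexp and 1.23 with median centring. In 100–600 nt strands the difference was -0.083 with normexp, 0.060 with median centring and 0.23 with marked spots kept, and 0.28 to 0.35 with 1 array left out. The Hist2h2ab mean there was 0.46 to 0.81 with 1 array left out. The cause of these changes was not tested. Of the values of single probes under the alternatives, 61 kept their call, 27 lost it (15 of them with normexp) and 0 reversed. With 1 of the 100–600 nt arrays left out the limma fits have no residual spread and were not run. All values of the 83 probes were well above background in both channels.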
